A study of Mus musculus with 6 samples.

Results

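Motile and primary cilium genes were compared between Egr3-deficient mice and wild-type mice in RNA of the lumbar spinal cord. The gene set was every probe set whose single gene symbol in the platform annotation began with Ift, Bbs, Dnah, Tekt, Spag, Rsph or Cfap (for Ift and Bbs, followed by a digit), plus Dnali1, Foxj1, Rarres2 and Mia. It held 129 probe sets of 82 genes, out of 45137 probe sets and 18193 singly named genes on 2 array types, called A and B. Array type A carried 53 of them, for 38 genes, and array type B carried 76, for 50 genes. Only 6 genes had probe sets on both array types.

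RNA came from 2 pools labelled Egr3-deficient, called pool 1 and pool 2, and from 1 wild-type pool. Each pool joined total RNA of 3 cords, segments L3 to L5, from mice at postnatal day 27, and was hybridised once to each array type. The labels of pool 1 lack the treatment entry "acclimatization" that those of pool 2 and of wild type hold. The labels name neither the strain nor the construction of the Egr3 allele, nor the sex of the mice, and they link no Egr3-deficient pool to the wild-type pool. With 1 wild-type pool its own spread is not known, and p-values measure only the spread between pools, with animals already averaged inside each pool. Egr3 had intensities of 24.9 and 52.7 in pools 1 and 2, against 40.6 in the wild-type pool, on array type A. On array type B its probe set had 209.6 and 107 in pools 1 and 2, against 75.3 in the wild-type pool. Egr3 was therefore not below wild type in both pools on either array type. What was deleted, and whether these probes fall inside it, was not stated in the labels, so the pools are called by their labels.

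A cilium is a microtubule axoneme covered by membrane that grows from a basal body. Most cells of the cord carry a single immotile primary cilium, used for signalling, whereas the ependymal cells that line the central canal carry motile cilia with dynein arms, radial spokes and a central apparatus. Both kinds are built by intraflagellar transport (IFT), in which kinesin carries IFT-B trains to the tip and a dynein with IFT-A carries them back, and membrane cargo is sorted by the BBSome. Foxj1 and the RFX factors are the transcription factors best known for switching on cilium genes, and RFX factors bind the X-box, an inverted repeat of the half-site GTTGCC.

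The RefSeq promoter table (assembly GRCm38.p6, 250 bases before to 50 after each gene start) held 68 of the 82 cilium genes. GTTGCC, read on both strands, was present in 21 of the 68 (30.9%), against 3821 of all 27025 genes in the table (14.1%). The forkhead core TGTTTAC was present in 4 (5.88%) against 4.05% of all genes, and the other forkhead core searched, TGTTTGT, in 1 (1.47%) against 7.6%; the 2 forkhead words can overlap each other, and TGTTTGT can share its last 2 bases with a half-site. The X-box form GTTGCC followed after 2 bases by its reverse complement (GGCAAC), which was counted only after the windows had been read, was present in 2 of 68 (2.94%), in Cfap20dc and Cfap298, against 30 of 27025 (0.111%). The windows below are shown because their genes carry the values described next, or the paired form. They are RefSeq sequence of GRCm38.p6, written 5′ to 3′ on the strand of the gene, and capitals mark the half-site on either strand. All lie upstream of the gene start.
Ift57, chr16:49699195-49699251, plus strand: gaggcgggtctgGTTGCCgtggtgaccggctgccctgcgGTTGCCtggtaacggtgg
Ift140, chr17:25015965-25015994, plus strand: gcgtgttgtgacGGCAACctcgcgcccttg
Bbs7, chr3:36613493-36613522, minus strand: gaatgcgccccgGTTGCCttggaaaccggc
Cfap20, chr8:95434946-95434975, minus strand: gaatagtcccttGGCAACcaagttccgcgc
Cfap20dc, chr14:8666367-8666404, minus strand: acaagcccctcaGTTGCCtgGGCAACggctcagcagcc
Cfap298, chr16:90934970-90935049, minus strand: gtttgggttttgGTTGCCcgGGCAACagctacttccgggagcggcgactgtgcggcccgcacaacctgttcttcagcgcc
A match is a description of letters in a window, and it was not related to any measured binding.

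Values below are the deposited linear intensities of a probe set in each pool. Differences are Egr3-deficient minus wild type in log2(intensity + 16) after quantile normalization within the array type, which understates changes of dim genes. They carry the standard error (SE) of limma and a p-value adjusted by Benjamini-Hochberg over all kept probe sets of the array type, called at 0.05. A probe set was kept for this test where its mean log2 value reached the 40th percentile, an intensity of about 36.7 on A and 55.9 on B. Of the cilium probe sets, 32 of 53 were kept on A and 40 of 76 on B. The other 57 were mostly dim in wild type, where 19 of 21 on A and 32 of 36 on B lay under the filter intensity.

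No cilium probe set passed the test on either array type, 0 of 32 on A and 0 of 40 on B, where 0.0663% and 1.63% of all kept probe sets passed. The smallest adjusted p among the cilium genes was 0.161 on A, for Ift74, and 0.0945 on B, for Ift122. At an unadjusted p under 0.05, 4 cilium probe sets on A were higher in the Egr3-deficient pools and 5 lower, where 7.93% and 12.7% of all kept probe sets were. On B, 5 were higher and 2 lower, where 7.4% and 6.83% of all kept probe sets were. Every difference of a kept cilium probe set below is therefore a measured value that missed the threshold, apart from 1 gene of the wider pathway, named where it occurs. Probe sets that were not kept were not tested, and their values are given as measured. Calls among marker genes of tissues are given with those markers.

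Among the 3 genes added to the set as ependymal genes, Rarres2 and Mia exceeded wild type in both Egr3-deficient pools, and Foxj1 did not. Foxj1, the transcription factor of motile ciliated cells, had 37.0 and 24.9 in pools 1 and 2, against 42.2 in the wild-type pool, and was too dim on average to be kept. Mia, a small secreted protein first known from melanoma and cartilage, had 91.7 and 107 in pools 1 and 2, against 50.9 in the wild-type pool. Both pools lay above wild type, a difference of 0.90 (SE 0.33, limma adjusted p 0.199).

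Rarres2 encodes chemerin, a secreted chemoattractant made in liver and fat and also known in mouse ependyma. Its first kept probe set had 93.5 and 207 in pools 1 and 2, against 53.2 in the wild-type pool, a difference of 1.30 (SE 0.44, limma adjusted p 0.189). The second had 109.8 and 269.8 in pools 1 and 2, against 71.3 in the wild-type pool, a difference of 1.22 (SE 0.48, limma adjusted p 0.215). In both, pool 2 was the highest and pool 1 lay between it and wild type. The third probe set, not kept, ran the other way, with 1.24 and 5.22 in pools 1 and 2, against 24.4 in the wild-type pool.

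Genes of other tissues differed between these pools too. The hepatocyte markers on A, 8 of 10 above wild type in both pools, summed to 464 and 10715 in pools 1 and 2, against 179 in the wild-type pool. Albumin (Alb) alone had 56.4 and 3712 in pools 1 and 2, against 37.7 in the wild-type pool. Pool 2 was thus the highest for the liver genes as it was for Rarres2. The choroid plexus list on A, 7 of 10 above in both pools, summed to 314 and 2595 in pools 1 and 2, against 142 in the wild-type pool, and it includes Ttr, which liver also makes, at 150.5 and 2408 in pools 1 and 2, against 24.0 in the wild-type pool. Of its other members on A, Folr1 was kept, at 39.4 and 44.5 in pools 1 and 2, against 37.3 in the wild-type pool, and Kl, Kcne2, Otx2, Slc4a5, F5, Calml4, Steap1 and Cldn2 were under the filter intensity in all 3 pools. Calml4, Steap1, Cldn2, F5 and Kl were above wild type in both pools all the same and Kcne2 below. On A Ttr was not called (difference 4.04, SE 1.22, limma adjusted p 0.171). On B Ttr had 584 and 6739 in pools 1 and 2, against 50.9 in the wild-type pool, and was called (difference 4.99, SE 0.59, limma adjusted p 2.2e-07). Its wild-type value lay under the filter intensity of B, so it was kept only through the Egr3-deficient pools. On the same array type Clic6 was split, at 400.3 and 248 in pools 1 and 2, against 295 in the wild-type pool. Skeletal muscle markers on A, all 11 higher than wild type in both pools, with 7 called, summed to 4301 and 5467 in pools 1 and 2, against 174 in the wild-type pool. Of those called, Acta1 alone reached the filter intensity in wild type, at 39.7. Ckm, Mylpf, Myl1, Tnni2, Tnnc2 and Myh1 were under it there and were kept only through the Egr3-deficient pools. Of all probe sets on A before the filter, 42.7% were above wild type in both pools. The part of these tissues in the values of Rarres2 was not tested.

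The wider ependymal list was mixed. On A, 3 of 6 genes exceeded wild type in both pools, 1 lay below in both, and the list summed to 2348 and 3223 in pools 1 and 2, against 2606 in the wild-type pool. On B, 4 of 8 were above and 1 below, and the sums were 761 and 719 in pools 1 and 2, against 529 in the wild-type pool. Before the filter, 42.7% of all probe sets on A and 37.8% on B were above in both pools, and 35.5% and 35% below. The kept genes of the list had a median difference of 0.60 on A and 0.82 on B. Over all listed genes on the array type, kept or not, it was 0.26 on A and 0.50 on B. Its 1 called gene was 1110017D15Rik on B (difference 2.26, limma adjusted p 0.0365), described with the motile list. The marker Tmem212 had 92.8 and 161 in pools 1 and 2, against 46.9 in the wild-type pool (difference 1.34, SE 0.58, limma adjusted p 0.26). In wild type 1110017D15Rik and Tmem212 lay under the filter intensity of B, so they were kept only through the Egr3-deficient pools. The other kept genes on B were Pifo, at 0.30, and Dynlrb2, split, at -0.22. The gene below wild type in both pools on B was Tm4sf1, not kept, at -0.53. In bulk RNA of this kind, fewer cells of a type and less RNA per cell cannot be told apart. The cord's own markers were present, summing on A to 26240 and 32065 in pools 1 and 2, against 38464 in the wild-type pool, and on B to 36852 and 27865 in pools 1 and 2, against 24430 in the wild-type pool. These sums hold unnormalized intensities of partly different genes on the array types and are not compared between them. After normalization the difference of Gfap was 0.28 on A and 0.26 on B, that of Syt1 -0.44 on A and -0.41 on B. Aqp4 differed most among the cord markers, by -1.74 on A (SE 0.32, limma adjusted p 0.158). On B it was called, at -1.84 (SE 0.42, limma adjusted p 0.0115). Snap25 changed side, with -0.96 on A and 0.51 on B. Of the 10 cord markers on A, 3 rose in both Egr3-deficient pools and 6 fell. Of the 8 on B, 3 rose and 3 fell. The kept cord markers had a median difference of -0.14 on A and 0.08 on B.

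Intraflagellar transport genes lay on both sides of wild type on A, in shares near those of all probe sets. All 16 IFT probe sets on A were kept, for 12 genes. In the Egr3-deficient pools 8 probe sets were above wild type in both and 7 below in both, with a median difference of 0.07. Over all kept probe sets of A, 47.9% were above in both pools and 34.8% below in both, with a median difference of 0.11. Sides are those of the normalized log2 values, which can differ from the order of the deposited intensities where these lie close.

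The lower members all belonged to IFT-B, the complex that carries tubulin and other cargo to the tip. Ift74, which with Ift81 forms the tubulin-binding module, had 31.6 and 75.1 in pools 1 and 2, against 185 in the wild-type pool. Its difference was -1.52 (SE 0.41, limma adjusted p 0.161), and it was the only kept cilium probe set on A at least 2-fold below wild type in both pools (3.12% of 32, against 4.35% of all kept probe sets). No kept cilium probe set on A was 2-fold above in both pools, where 1.2% of all were.

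Its partner Ift81 had 2 kept probe sets on A. One had 30.9 and 52.8 in pools 1 and 2, against 105 in the wild-type pool, a difference of -0.99 (SE 0.35, limma adjusted p 0.194). The other had 42.1 and 88.1 in pools 1 and 2, against 126 in the wild-type pool, a difference of -0.76 (SE 0.39, limma adjusted p 0.302). Both pools lay below wild type in each, and pool 1 was the lowest. On B a dim Ift81 probe set, not kept, did not repeat this, with 38.5 and 59.2 in pools 1 and 2, against 38.3 in the wild-type pool.

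Ift80, Ift57 and Ift88 also lay below wild type on A. Ift80, a peripheral IFT-B subunit, had 24.7 and 33.5 in pools 1 and 2, against 76.4 in the wild-type pool at its lower probe set (difference -0.94, SE 0.33, limma adjusted p 0.191). The other Ift80 probe set had 33.9 and 47.7 in pools 1 and 2, against 68.5 in the wild-type pool. Both probe sets were lowest in pool 1 with pool 2 next. Ift57, whose promoter window above holds a pair of half-sites on the gene's strand, had 50.5 and 66.3 in pools 1 and 2, against 120.3 in the wild-type pool (difference -0.78, SE 0.33, limma adjusted p 0.236). Ift88, the core subunit known from the polycystic kidney mutant mouse, had 47.5 and 73.3 in pools 1 and 2, against 87.7 in the wild-type pool (difference -0.34, SE 0.34, limma adjusted p 0.575). The separate Ift57 probe set on B gave 47.3 and 83.1 in pools 1 and 2, against 87.9 in the wild-type pool, so only pool 1 was clearly below there (difference -0.21, SE 0.69, limma adjusted p 0.942).

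Other IFT-B members lay above wild type. Ift22, a small GTPase-like subunit, had 356 and 254 in pools 1 and 2, against 217 in the wild-type pool (difference 0.48, SE 0.33, limma adjusted p 0.425). Ift46, known in the alga Chlamydomonas for carrying outer dynein arms, had 327 and 264 in pools 1 and 2, against 204 in the wild-type pool (difference 0.53, SE 0.32, limma adjusted p 0.354). In both, pool 1 was the highest. Ift27, a second GTPase-like subunit that helps the BBSome leave the cilium, was above wild type in both pools at all 3 of its probe sets. The widest of them had 111 and 71.0 in pools 1 and 2, against 46.8 in the wild-type pool (difference 0.84, SE 0.38, limma adjusted p 0.262). The other Ift27 probe sets differed by 0.57 and 0.60; 2 of the 3 are of a probe class that can bind related transcripts. Ift172 and Ift20 were nearly level, at 0.17 and 0.06.

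Counted by gene, 4 IFT-B genes on A lay above wild type at every probe set in both pools (Ift22, Ift27, Ift46 and Ift172), 5 lay below (Ift57, Ift74, Ift80, Ift81 and Ift88), and Ift20 was split. The median of the 14 IFT-B probe sets was -0.14. In normalized values pool 2 lay between pool 1 and wild type at 15 of the 16 IFT probe sets (93.8%), the members above wild type and those below alike, and at 22 of all 32 kept cilium probe sets on A (68.8%), where 58.4% of all kept probe sets did. On B the count was 17 of 40 (42.5%) against 52%. This ordering was noticed after the values were seen. Pool 1 is also the pool without the acclimatization remark, so its distance from wild type and any difference in handling cannot be told apart.

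**Figure D1:**
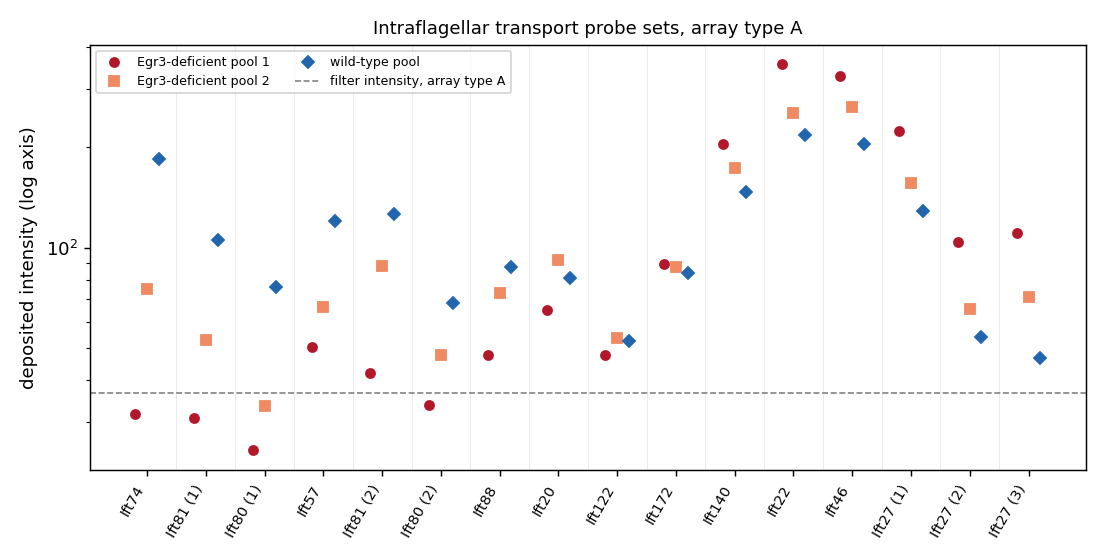
Deposited intensity (log axis) of the 16 IFT probe sets on array type A, ordered by their fitted difference, with 1 point per pool; probe sets of the same gene are numbered in brackets. Ift74, Ift81 and Ift80 on the left lie furthest below wild type, Ift27 on the right lies furthest above, and after normalization, not plotted, pool 2 lay between pool 1 and wild type at 15 of 16.

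Of IFT-A, the complex of return transport and of entry of membrane receptors, the subunits with an Ift symbol gave 4 kept probe sets, Ift122 and Ift140 on A and Ift122 and Ift43 on B. Subunits named otherwise did not share a side: on B, Ttc21b differed by -0.28 and Wdr19 by -0.30, below wild type in both pools, and Wdr35 was split. Ift140 had 205 and 174 in pools 1 and 2, against 147 in the wild-type pool, on A (difference 0.41, SE 0.32, limma adjusted p 0.484). On B, Ift43 had 648 and 497 in pools 1 and 2, against 342 in the wild-type pool (difference 0.65, SE 0.43, limma adjusted p 0.537). Both pools were above wild type for each of these genes. Ift122, which with Ift140 makes the core of IFT-A, had 670.4 and 511 in pools 1 and 2, against 218 in the wild-type pool, on B. Its difference was 1.36 (SE 0.43, limma adjusted p 0.0945), the smallest adjusted p of the cilium genes, and with eBayes made robust to outlying variances its adjusted p was 0.0482. The Ift122 probe set on A was level, at 47.7 and 53.7 in pools 1 and 2, against 52.5 in the wild-type pool. The A value, 0.09 (SE 0.33, limma adjusted p 0.896), changed sign to -0.04 without quantile normalization, so the 2 array types did not agree in size. The probe set on B is of a class that can bind several transcripts. Ift52, an IFT-B core subunit, was level on B at 382 and 438 in pools 1 and 2, against 386 in the wild-type pool.

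Genes with a Bbs symbol lay on both sides of wild type on B. Of 9 kept Bbs probe sets on B, 1 was above wild type in both Egr3-deficient pools, 5 were below in both and 3 were split, with a median of -0.17. The 5 were 3 probe sets of Bbs4, 1 of Bbs7 and 1 of Bbs12, so of the 4 BBSome subunits Bbs1 lay above at its only kept probe set, Bbs7 below, and Bbs4 and Bbs5 were mixed or split. Over all kept probe sets of B, 38.9% were above in both pools and 36.6% below in both, with a median of 6.3e-05. Bbs1, the subunit that binds the small GTPase recruiting the coat to membranes, had 428 and 349.6 in pools 1 and 2, against 178 in the wild-type pool (difference 1.09, SE 0.45, limma adjusted p 0.227). Bbs7, another subunit, had 121 and 122 in pools 1 and 2, against 257 in the wild-type pool (difference -0.92, SE 0.46, limma adjusted p 0.355). The genes lay on opposite sides of wild type, each with both pools, and both proteins belong to the same coat.

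Bbs4, a subunit that also binds pericentriolar material, had 4 kept probe sets, with differences of -0.65, -0.17, -0.13 and -0.08. The lowest had 107 and 149 in pools 1 and 2, against 223 in the wild-type pool; 3 of the 4 were below wild type in both pools, and the 2 nearest to 0 became 0.05 and 0.14 under median centring. Bbs5, which binds phosphoinositides, had 66.8 and 137 in pools 1 and 2, against 142 in the wild-type pool, so only pool 1 was clearly lower. At their kept probe sets the chaperonin-like genes that help the coat assemble were close to wild type, with differences of 0.10 for Bbs10 and -0.23 for Bbs12. Another Bbs10 probe set, not kept, was below wild type in both pools. It had 11.0 and 32.5 in pools 1 and 2, against 79.4 in the wild-type pool, a difference of -1.23. On A, Bbs2 had 52.0 and 47.8 in pools 1 and 2, against 57.8 in the wild-type pool, and Bbs9 had 38.3 and 53.2 in pools 1 and 2, against 62.3 in the wild-type pool, differences of -0.05 and -0.23.

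The wide positive differences of cilium genes on B were mostly of axonemal genes, which also made up most of the kept cilium probe sets there. Of the 40 kept, 13 were Cfap, 6 dynein, 3 tektin and 3 radial spoke probe sets. On B, 5 kept cilium probe sets were at least 2-fold above wild type in both Egr3-deficient pools (12.5% of 40), where 4.27% of all kept probe sets were, and 0 were 2-fold below in both, where 1.8% were. The 5 were Dnah2, Cfap70, Tekt5 and Cfap126, all axonemal, and Ift122. Dnah2, a heavy chain of an inner dynein arm, had 108 and 112 in pools 1 and 2, against 22.3 in the wild-type pool (difference 1.88, SE 0.71, limma adjusted p 0.181). A second Dnah2 probe set did not repeat this, with 118 and 34.6 in pools 1 and 2, against 93.5 in the wild-type pool, a difference of -0.26. Tekt5, a tektin, one of the filament proteins inside the doublet microtubules, had 346 and 324 in pools 1 and 2, against 131 in the wild-type pool (difference 1.34, SE 0.45, limma adjusted p 0.113).

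Cfap126, known in the mouse as Flattop, a Foxj1 target that helps place basal bodies, had 204 and 220.5 in pools 1 and 2, against 91.8 in the wild-type pool. Its difference was 1.22 (SE 0.46, limma adjusted p 0.183). Cfap70, a protein of the outer dynein arm region, had 109 and 72.7 in pools 1 and 2, against 23.6 in the wild-type pool (difference 1.58, SE 0.80, limma adjusted p 0.363). For all 4 axonemal genes both pools stood well apart from wild type and within a factor of 2 of each other, yet Dnah2 and Cfap70 lay under the filter intensity in wild type and were kept only through the Egr3-deficient pools. A cilium probe set dim in wild type could enter this count only by being higher in those pools, so the count before the filter is given next.

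Before the filter, 10 of 76 cilium probe sets on B were at least 2-fold above wild type in both pools (13.2%), where 4.47% of all probe sets were, and 1 was 2-fold below (1.32%), where 3.55% were. The 10 belong to 9 genes. Besides the 5 already named they are Cfap45, 2 probe sets of Cfap52, Dnah12 and Spag17, so that 9 probe sets of 8 genes are axonemal. Most of the 76 were of these groups too, with 31 Cfap, 11 dynein, 7 axonemal Spag, 4 radial spoke and 3 tektin probe sets. Cfap45 and Cfap52 encode proteins of the inner wall of the doublets. Cfap45 had 91.2 and 86.4 in pools 1 and 2, against 13.8 in the wild-type pool. Cfap52 had 69.4 and 87.0 in pools 1 and 2, against 9.90 in the wild-type pool, at one probe set, and 55.2 and 52.7 in pools 1 and 2, against 12.2 in the wild-type pool, at the other. All 3 were under the filter intensity in wild type and near or above it in both Egr3-deficient pools.

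Spag17, a large protein of the central apparatus, had 28.9 and 35.4 in pools 1 and 2, against 2.86 in the wild-type pool. Dnah12, an inner arm heavy chain, had 42.1 and 57.5 in pools 1 and 2, against 16.4 in the wild-type pool. Intensities this low carry the least information about transcript level, and none of these unkept probe sets was tested. The 1 probe set 2-fold below was of Spag16, also a central apparatus gene, at 6.93 and 11.0 in pools 1 and 2, against 45.9 in the wild-type pool. The other Spag16 probe sets, not kept either, did not repeat this, with differences of 0.46, 0.15 and -0.17. The genes not kept by the filter were named after their values had been seen.

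The excess over wild type on B was not carried by one pool alone. Taken alone, pool 1 had 19 of 76 cilium probe sets at least 2-fold above wild type (25%), where 12.2% of all probe sets were, and 7 below (9.21%), where 13.8% were. Pool 2 had 13 above (17.1%), where 8.21% of all were, and 5 below (6.58%), where 8.07% were. Both comparisons use the same wild-type pool, so a value off in that pool enters both. The count also depended on scaling: with the arrays scaled on the 100 probe sets present in both tables, which shifted the median of all kept probe sets on B by -0.66 relative to wild type, 0 kept cilium probe sets were 2-fold above and 4 were 2-fold below. Ift122, Dnah2, Tekt5, Cfap70 and Cfap126 then still lay above wild type, by 0.78, 1.14, 0.68, 0.83 and 0.51.

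On A the axonemal genes gave no such pattern, and most were not kept by the filter. None of the 5 dynein or 2 tektin probe sets on A was kept. Before the filter 0 of 53 cilium probe sets on A were 2-fold above in both pools, where 1.14% of all were, and 1 was 2-fold below (1.89%), where 3.38% were. Rsph9, a radial spoke head protein, had 63.8 and 74.0 in pools 1 and 2, against 45.4 in the wild-type pool (difference 0.58, SE 0.33, limma adjusted p 0.334). Spag1, a factor that helps dynein arms assemble in the cytoplasm, was level at 56.1 and 52.3 in pools 1 and 2, against 51.3 in the wild-type pool.

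The other dynein genes kept on B were close to wild type or modestly above it. Dnah1, Dnah7a, Dnah9 and Dnali1, heavy chains and a light intermediate chain of the arms, had differences from 0.27 to 0.48, all of which lay below 0 with scaling on shared probe sets, from -0.47 to -0.24. Dnah9, an outer arm heavy chain, had 197.5 and 142 in pools 1 and 2, against 141 in the wild-type pool, so only pool 1 stood apart. Of 6 kept dynein probe sets, 5 exceeded wild type in both pools and 1 was split, with a median of 0.38. Tekt3 and Tekt4 were split or level, at -0.07 and -0.22. The radial spoke genes lay otherwise: Rsph14 had 123 and 123 in pools 1 and 2, against 196 in the wild-type pool (difference -0.51, SE 0.47, limma adjusted p 0.695). Rsph4a, a spoke head protein, differed by -0.27 and Rsph3a, a spoke stalk protein, by 0.30.

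**Figure D2:**
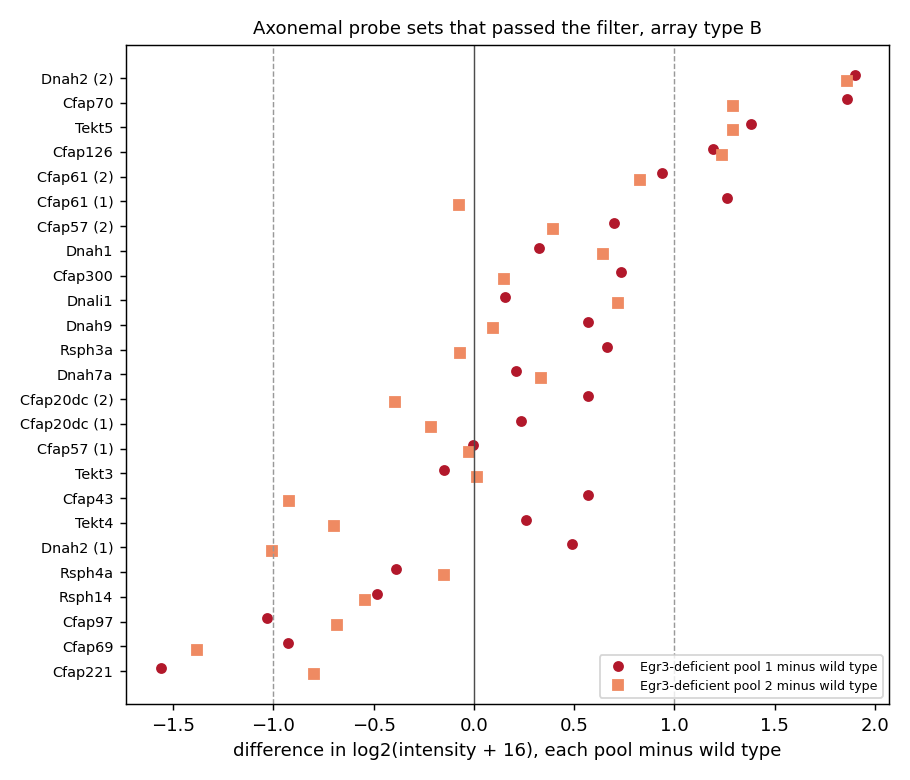
Difference from wild type in log2(intensity + 16) of pool 1 and pool 2, for each kept dynein, tektin, radial spoke and Cfap probe set on array type B; dashed lines mark 2-fold. Dnah2, Cfap70, Tekt5 and Cfap126 have both pools beyond 2-fold above, and Cfap221, Cfap69 and Cfap97 lie lowest.

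Cfap genes, a symbol class that joins proteins of many axonemal and ciliary sites, covered both sides. Of 13 kept Cfap probe sets on B, 5 were above wild type in both pools, 4 below and 4 split, with a median of 0.09. Cfap97 had 389 and 489.6 in pools 1 and 2, against 717 in the wild-type pool (difference -0.86, SE 0.42, limma adjusted p 0.348; -0.53 under median centring), and its 2 dim probe sets on A also lay below wild type in both pools. Cfap221, a central apparatus protein, had 34.8 and 79.1 in pools 1 and 2, against 158 in the wild-type pool (difference -1.18, SE 0.63, limma adjusted p 0.404). Both pools were below wild type in each gene, with pool 1 the lower. Cfap69, known from mouse sperm flagella and olfactory cilia, had 48.0 and 35.6 in pools 1 and 2, against 126 in the wild-type pool (difference -1.15, SE 0.77, limma adjusted p 0.545). Its other probe sets on B, not kept, did not repeat this. One was split, at 116 and 20.0 in pools 1 and 2, against 49.4 in the wild-type pool, and the other was very dim and level, at 0.03.

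Cfap61, a protein of the complex at the base of the radial spokes, had 146 and 139 in pools 1 and 2, against 79.9 in the wild-type pool (difference 0.88, SE 0.50, limma adjusted p 0.442). Its second probe set was split, at 162 and 57.2 in pools 1 and 2, against 68.1 in the wild-type pool. Cfap57, an inner arm protein, differed by 0.55 at one probe set and -0.01 at the other. Cfap20dc, with the paired half-sites shown above, was split at both kept probe sets, with mean differences of 0.09 and 0.01. The first had 94.5 and 44.9 in pools 1 and 2, against 71.2 in the wild-type pool. The second had 112 and 83.5 in pools 1 and 2, against 108 in the wild-type pool. A dim one, not kept, lay above wild type in both pools, at 48.0 and 16.3 in pools 1 and 2, against 10.2 in the wild-type pool.

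On A, Cfap36, a binding partner of the ciliary GTPase Arl3, had the lowest difference of all kept cilium probe sets. It had 119.7 and 310.0 in pools 1 and 2, against 599 in the wild-type pool, a difference of -1.54 (SE 0.48, limma adjusted p 0.174). Both pools were below wild type, with pool 1 at -2.14 and pool 2 at -0.94, short of 2-fold. Cfap298, a dynein arm assembly factor and the other gene with paired half-sites, had 86.2 and 56.6 in pools 1 and 2, against 123 in the wild-type pool (difference -0.61, SE 0.38, limma adjusted p 0.373). Of its 3 dim probe sets, not kept, 1 was above wild type in both pools, by 0.30 and 0.11, 1 was below in both and 1 was split. Cfap20, a protein of the inner junction of the doublets, lay above wild type at both probe sets, by 0.58 and 0.19, as did Cfap410, by 0.62 and 0.51. The genes with half-sites in the windows shown thus lay on both sides of wild type.

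Spag symbols outside the axoneme were kept apart, because the name records detection in sperm and not a ciliary site. Spag9, a scaffold that links vesicles to motor proteins, had 2195 and 3226 in pools 1 and 2, against 3733 in the wild-type pool on B. Its difference was -0.98 (SE 0.33, limma adjusted p 0.112), and with the filter raised to the 60th percentile its adjusted p was 0.0359. That size rested on quantile normalization: the difference was -0.49 without it and -0.32 under median centring. Spag5, a mitotic spindle protein, had 96.0 and 70.6 in pools 1 and 2, against 37.4 in the wild-type pool on A (difference 0.97, SE 0.36, limma adjusted p 0.204). The second kept Spag5 probe set had 172 and 147 in pools 1 and 2, against 128 in the wild-type pool, and a dim one, not kept, lay below wild type in both pools. Spag7 was level, at 185 and 163 in pools 1 and 2, against 195 in the wild-type pool.

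Over the kept cilium probe sets of A, 19 were above wild type in both Egr3-deficient pools (59.4%), 10 below (31.2%) and 3 split, and the median difference was 0.18, against 0.11 over all kept probe sets. Before the filter the counts on A were 23 above (43.4%), 18 below (34%) and 12 split of 53, where 42.7% and 35.5% of all probe sets were above and below, and the median over cilium probe sets was 0.0039. On B the kept probe sets gave 14 above (35%), 13 below (32.5%) and 13 split, and the median was -0.0017. Before the filter B gave 34 above (44.7%), 22 below (28.9%) and 20 split of 76, where 37.8% and 35% of all probe sets were above and below, and the median was 0.18. The median over all probe sets before the filter was 0.05 on A and 0.02 on B. Of 15 genes with several kept probe sets, 9 lay on one side with all of them.

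**Figure D3:**
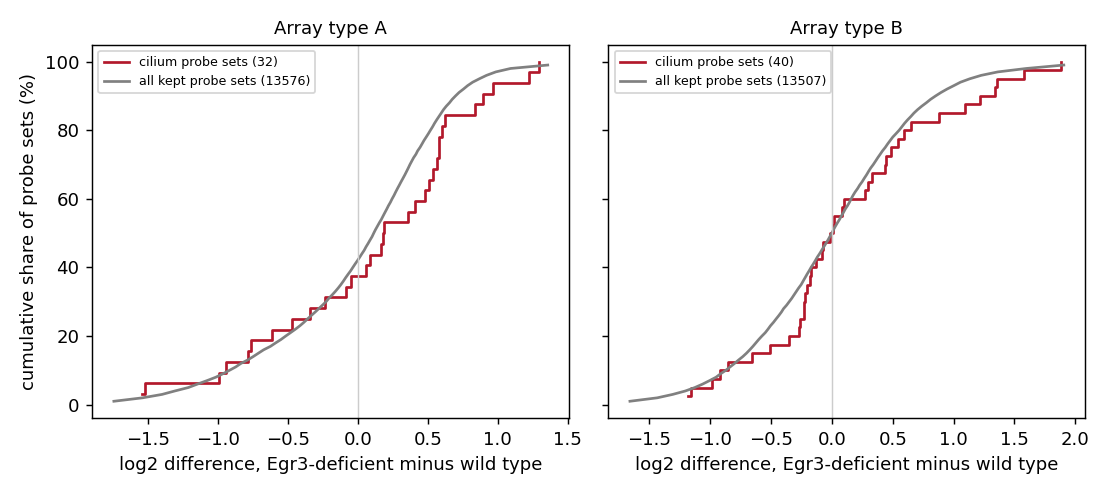
Cumulative share (%) of kept cilium probe sets (step) and of all kept probe sets (line) by log2 difference, Egr3-deficient minus wild type, on array types A and B. The medians were 0.18 for 32 cilium probe sets, against 0.11 over all kept probe sets on A, and -0.0017 for 40 cilium probe sets, against 6.3e-05 over all on B.

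Cilium genes outside the naming rule were read from 2 lists. Of 63 motile cilium genes listed, 24 were on A and 7 kept, with 11 on the upper side of wild type in both pools, 5 on the lower and 0 called. On B 39 were present and 22 kept, with 19 above and 8 below, and 1 called. Of all probe sets before the filter, 42.7% on A and 37.8% on B were above in both pools, and 35.5% and 35% below. The called gene was 1110017D15Rik, a marker of ciliated cells in the mouse, which rose in the Egr3-deficient pools, to 228 and 106 in pools 1 and 2, against 23.6 in the wild-type pool (difference 2.26, SE 0.60, limma adjusted p 0.0365). Its wild-type value lay under the filter intensity. The adjusted p was 0.474 without the filter, 0.286 without quantile normalization, 0.182 without the intensity trend and 0.335 with scaling on shared probe sets. The call thus held under 4 of the 8 alternatives in which the probe set was tested.

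Before the filter, 5 of the 39 motile genes on B were at least 2-fold above wild type in both pools and 1 was 2-fold below, where 4.47% and 3.55% of all probe sets were. On A 1 of 24 was above and 0 below, where 1.14% and 3.38% of all probe sets were. The 5 on B were 1110017D15Rik, Tmem212, Ccdc103, Stk36 and Armc4, and all were under the filter intensity in wild type. Armc4, a dynein arm docking gene, was not kept, at 84.5 and 53.2 in pools 1 and 2, against 3.28 in the wild-type pool, and the other 4 were kept only through the Egr3-deficient pools. The gene below was Hydin, a central apparatus gene, not kept either, at 23.0 and 37.4 in pools 1 and 2, against 112 in the wild-type pool. Ccdc103, a dynein arm attachment factor, had 103 and 108 in pools 1 and 2, against 28.4 in the wild-type pool (difference 1.63, SE 0.70, limma adjusted p 0.252). Stk36, a kinase needed for the central apparatus in the mouse, had 155 and 140.5 in pools 1 and 2, against 52.8 in the wild-type pool (difference 1.42, SE 0.53, limma adjusted p 0.166). Rfx2, one of the factors that bind the X-box, had 112 and 69.4 in pools 1 and 2, against 42.0 in the wild-type pool, also under the filter intensity (difference 1.04, SE 0.71, limma adjusted p 0.561). The RFX factors did not share a side. Also kept on B, Rfx1 was above wild type in both pools (0.86), Rfx3 below in both (-0.75) and Rfx4 split (0.12). On A, Rfx1, Rfx2 and Rfx3 were not kept, at -0.27, -0.00015 and 0.21. The kept motile genes had a median of 0.24 on A and 0.30 on B, against 0.11 and 6.3e-05 over all kept probe sets.

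Of 72 primary cilium and transport genes listed, 43 were on A and 32 kept, with 17 on the upper side of wild type in both pools and 17 on the lower. On B 35 were present and 29 kept, with 18 above and 11 below. The shares of all probe sets above and below in both pools are those given with the side counts of the motile list. None was called on either array type. The medians of the kept genes were 0.17 on A and 0.09 on B, against 0.11 and 6.3e-05 over all kept probe sets. Kif3a, the motor subunit that carries IFT trains to the tip, had 96.4 and 177 in pools 1 and 2, against 347 in the wild-type pool, on A (difference -1.25, SE 0.38, limma adjusted p 0.173). On B Kif3a had 297 and 595 in pools 1 and 2, against 917 in the wild-type pool (difference -1.25, SE 0.43, limma adjusted p 0.13). Kif3a thus lay below wild type in both pools on both array types, lowest in pool 1.

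Lztfl1, a regulator of BBSome entry into the cilium, was placed alike, at 27.6 and 88.0 in pools 1 and 2, against 187 in the wild-type pool, on A (difference -1.49, SE 0.48, limma adjusted p 0.177). On B it had 85.9 and 198 in pools 1 and 2, against 302 in the wild-type pool (difference -1.06, SE 0.47, limma adjusted p 0.277). Both array types share the same 3 RNA pools, so the second value is a repeat of the measurement and not of the pools. The paralogue Kif3c had 1814 and 1303 in pools 1 and 2, against 557 in the wild-type pool, on B (difference 1.23, SE 0.38, limma adjusted p 0.0819), but 425 and 534 in pools 1 and 2, against 462 in the wild-type pool, on A. Of the intermediate chains of the return dynein, Wdr34 lay above wild type (1.13) and Wdr60 below (-1.42) on B. B9d1, a protein of the transition zone at the base of the cilium, had 104 and 114 in pools 1 and 2, against 50.6 in the wild-type pool, on A (difference 1.02, SE 0.32, limma adjusted p 0.176). The genes named with these lists, apart from Rfx1, Rfx3 and Rfx4, were chosen by size, at least 2-fold on average, after their values had been seen.

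Some control ratios and the overall scale also differed between the groups. The ratio of the 3′ to the 5′ control probe set of 18S RNA was 2.27 and 1.08 in pools 1 and 2, against 0.0493 in the wild-type pool, on A. That of Gapdh was 0.858 and 0.975 in pools 1 and 2, against 0.734 in the wild-type pool. Beta-actin had 1.37 and 1.48 in pools 1 and 2, against 1.36 in the wild-type pool, on A. On B it had 1.40 and 1.47 in pools 1 and 2, against 1.52 in the wild-type pool, so its side changed with the array type. The transferrin receptor on A was split, at 1.55 and 2.29 in pools 1 and 2, against 1.56 in the wild-type pool. On B it was above wild type in both pools, at 2.57 and 2.54 in pools 1 and 2, against 2.11 in the wild-type pool. The median deposited intensity was also lower in the Egr3-deficient pools, at 50.2 and 57.7 in pools 1 and 2, against 59.9 in the wild-type pool on A, and at 75.9 and 83.5 in pools 1 and 2, against 91.6 in the wild-type pool on B. Their part in the cilium values was not tested.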

How the data were processed

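Each of 3 RNA pools was hybridised to 2 array types, giving 6 arrays. The deposited values are intensities on a linear scale, 1 for each probe set; how the authors summarised probes was not given in the sources used here. Arrays have no read depth, so their number limits the precision. The members, gene lists and tests were chosen with earlier results of these data known.

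For each array type 64 control probe sets were removed, 16 was added to each intensity before taking log2, and the 3 arrays were quantile normalized. Probe sets with a mean log2 value at or above the 40th percentile entered the test (13576 on A, 13507 on B). limma 3.58.1 in R 4.3.3 (lmFit, eBayes with an intensity trend) compared 2 Egr3-deficient pools with 1 wild-type pool, with 1 residual degree of freedom and a prior of 6.54 on A and 52.3 on B, adjusted by Benjamini-Hochberg at 0.05. The code was tested on simulated data. Symbols are those of the platform annotation, and all member symbols matched the RefSeq gene table. Named members were the 3 ependymal genes, those past the threshold, those 2-fold in both pools, the 3 brightest and the widest kept probe sets of each role group, and genes kept on both array types; for listed genes the brightest probe set was used. Any other member named was chosen after its values were seen. Alternatives changed the normalization, pseudocount, filter and variance model, and scaling on shared probe sets was added after seeing the data.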

Additional observations from a re-analysis of the deposited data

How the results depend on the processing

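Over the planned normalizations, pseudocounts and filters, 308 comparisons of 57 named probe sets were made: 297 kept sign and call, 3 changed sign and 8 changed call. The sign changed for Ift122 on A (-0.039 without quantile normalization) and for 2 Bbs4 probe sets (0.049 and 0.14 under median centring). Scaling on shared probe sets is outside these 308 and turned the sign of 2 of 32 kept members on A and 12 of 40 on B, Dnah1 (-0.24), Dnah9 (-0.35), Dnali1 (-0.27), Cfap57 (-0.15), Rsph3a (-0.45) and Ift52 (-0.50) among them. In 1 pool alone 9 of the 57 had the opposite sign. On A, where no member passed, median centring called 4 (Ift74 at an adjusted p of 0.00603, Cfap36 at 0.0226, and Rarres2 at 0.0263 and 0.0447), among 824 calls in all. On B, 1 member passed under a 60th percentile filter (Spag9) and 1 with robust eBayes (Ift122). Over all kept probe sets of B, 220 passed in the main fit, 375 under a 60th percentile filter, 2 without quantile normalization and 0 without the intensity trend.

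The count of kept members 2-fold above wild type in both pools on A, 0, became 2 with a pseudocount of 1, and was 2 to 2 with either pool alone. The count below on A, 1, became 2 with a pseudocount of 1, 0 with a pseudocount of 64 and 0 under a 60th percentile filter, and was 1 to 5 with either pool alone, 5 without pool 2. On B the count above, 5, was 3 with a pseudocount of 64, 3 under a 60th percentile filter, 10 without the filter and 0 with scaling on shared probe sets, and 5 to 7 with either pool alone. The count below on B, 0, was 1 without quantile normalization, 1 with a pseudocount of 1, 1 without the filter and 4 with scaling on shared probe sets, and 2 to 3 with either pool alone. The median on A, 0.18, was 0.0039 without the filter and 0.41 under a 60th percentile filter, and 0.16 to 0.32 with either pool alone. The median on B, -0.0017, was 0.18 without the filter, -0.68 with scaling on shared probe sets (-0.66 over all kept probe sets) and -0.0055 to 0.18 with either pool alone. The cause of these changes was not tested, beyond the construction of fewer or more probe sets under each filter. No paired analysis was possible because there is 1 wild-type pool and the labels give no pairing. Fits that leave out a pool have no residual degree of freedom and gave values only.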
